A study of Mus musculus with 8 samples.

Results

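The genes described here are 41 genes of fatty acid oxidation and of the PPAR-alpha program, taken by symbol from a fixed list out of 22609 genes in the count tables. They were grouped by role into regulators, uptake and activation, the carnitine shuttle, the steps of mitochondrial oxidation, electron transfer, peroxisomal oxidation, further PPAR-alpha targets and triglyceride hydrolysis. All 41 symbols were found, and 40 had enough counts to be tested. The exception was Cpt1b, the muscle form of carnitine palmitoyltransferase 1, with 43 read pairs in all aged mice together and 17 in all young mice.

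RNA was sequenced from the kidney cortex of 8 untreated male C57BL6 mice, 4 aged (labelled 30 months) and 4 young (labelled 5 months), with 1 library per mouse. The groups shared strain, sex and tissue and differed in age. Neither the feeding state nor the time of day at which tissue was taken is given in the sources used here. Because whole cortex was used, fewer cells of a type and less RNA per cell cannot be told apart in any value below.

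The proximal tubule of the kidney cortex draws much of its energy from fatty acids. Fatty acids enter the cell, are bound by carrier proteins, activated to acyl-CoA, moved into mitochondria on carnitine and shortened there, while peroxisomes shorten very long and branched chains. PPAR-alpha, a nuclear receptor that fatty acids activate, pairs with RXR on direct repeats of a short DNA motif and raises transcription of many of these enzymes, above all in fasting.

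Counts assigned to genes ranged from 14820804 to 19018543 read pairs in the aged libraries and from 15152597 to 19821429 in the young ones. Levels are given as CPM, the gene's counts relative to the scaled library size, which compares mice within a gene, and as RPKM, which divides by transcript length, where genes are set against each other. A gene was called when its adjusted p in edgeR's quasi-likelihood test was under 0.05. Of 13944 genes tested, 411 were called (2.95%), 210 higher in aged mice (1.51%) and 201 lower (1.44%).

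Of the 40 members tested, 3 were called. Fabp1, a cytosolic fatty acid carrier, rose in aged cortex, while Acads, the short-chain acyl-CoA dehydrogenase, and Abhd5, the co-activator of triglyceride lipase, fell. Fabp1 entered the test only through its aged counts, since those of the young mice were under the filter's minimum of 10, and its call is given with that limit. It was also the only one of these to differ by more than 1.5-fold, a size that 2.06% of all genes combined with a call. At an unadjusted p under 0.05 the members numbered 15 of 40 (10 higher and 5 lower), against 25.5% of all genes. The 2 groups of mice did not overlap in 10 of 40 members, against 18.9% of all genes. The median log2 fold change over the 40 members was 0.25, with a range from -0.99 to 3.60, and the median over all genes was 0.03.

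Aged mouse 1 stood apart from the other aged mice in these genes. It held the highest level of all 8 mice in 26 of 40 members, against 28.4% of all genes, and the lowest in 6 of 40, against 29.3% of all genes. In 22 of 40 members it exceeded the mean of the other aged mice by more than 1.5-fold, against 13.5% of all genes. It fell below that mean by as much in 0 of 40, against 1650 of 13944 genes. Taking each member's difference from the young mean on the log2 scale, the median over members was 0.64 in aged mouse 1, and -0.02, 0.03 and 0.07 in aged mice 2, 3 and 4. The same median lay between -0.13 and 0.10 in the 4 young mice. Without aged mouse 1 the median fold change over the members was 0.02, and 6 of 40 were called, against 5.83% of the 14016 genes tested in that fit. The 4 called higher were Fabp1, Acsl1, Decr2 and Hacl1 (2.65% of all genes were called higher in that fit), and the 2 called lower were Acads and Abhd5 (3.18% of all genes). Fabp1 is counted here with the limit given above, since it entered the test through its aged counts.

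**Figure D1:**
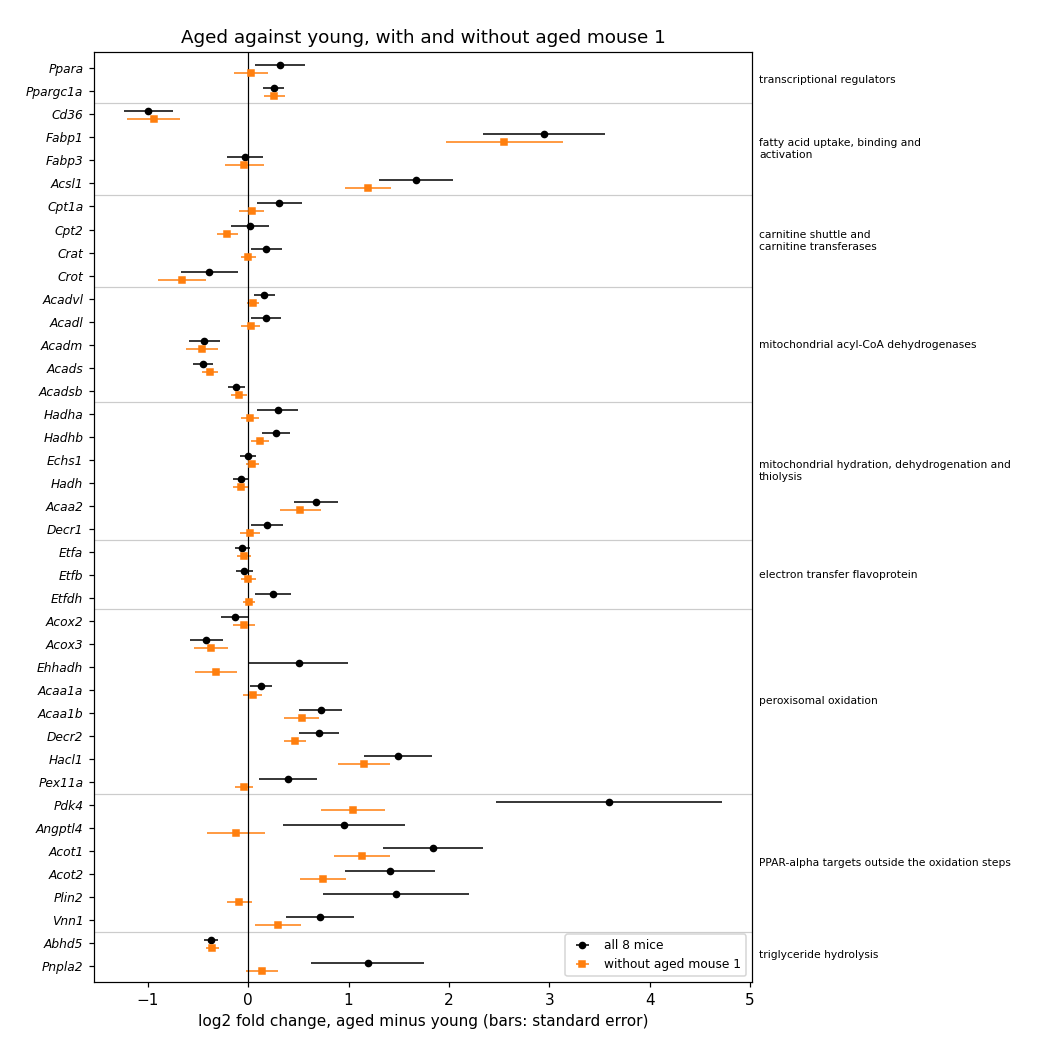
Log2 fold change (aged minus young) of the 40 tested members, ordered by role, with all 8 mice (black circles) and without aged mouse 1 (orange squares). Bars are standard errors. Without aged mouse 1 the value of Pdk4 went from 3.60 to 1.04, and that of Cd36 from -0.99 to -0.94.

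Marker lists of other cell types and of hormone response also moved in aged mouse 1. The summed level of 8 adipocyte markers was 545 CPM there, 38.9 to 147 CPM in the other aged mice and 25.6 to 66.7 CPM in the young mice. Fabp4 alone gave 252 CPM of the sum in aged mouse 1. Fabp4, Cidec and Plin1 are also among the further pathway genes below, so the list is not separate from them. Adipoq, the adipocyte hormone adiponectin, was at 37.6 CPM in aged mouse 1 and at 0.204 to 10.02 CPM elsewhere, and Ucp1, the uncoupling protein of brown fat, was at 16.9 CPM against at most 0.260 CPM in the other aged mice and 0 in the young. The adipocyte list was highest in aged mouse 1 for 6 of its 6 tested genes. Ucp1 and Lep, also on the list, had too few counts to be tested. Lep went the other way, at 0.0982 CPM in aged mouse 1 and 0.374 to 1.24 CPM in the other aged mice. In the young mice Lep was at 0 to 0.354 CPM. Genes of the glucocorticoid response summed to 2264 CPM in aged mouse 1, 576 to 868 CPM in the other aged mice and 726 to 794 CPM in the young, and 10 of 10 were highest in that mouse. Markers of the early proximal tubule (segments S1 and S2) summed to 12613 CPM there, 24409 to 26770 CPM in the other aged mice and 23126 to 28144 CPM in the young, with 9 of 12 lowest in aged mouse 1. The part of these shifts in the members' values was not tested. Markers of the late proximal tubule (S3) summed to 5102 CPM in aged mouse 1, 5068 to 8893 CPM in the other aged mice and 8955 to 11134 CPM in the young. The sum was thus lower in every aged mouse, but only narrowly in the highest of them. Its largest part was Slc27a2, which is also among the further pathway genes below. That gene overlapped between the groups, at 3480 to 5094 CPM in aged and 4638 to 5662 CPM in young mice. Slc7a13 overlapped as well, at 183 to 1076 CPM in aged and 964 to 1227 CPM in young mice. Atp11a did not overlap, at 318 to 1733 CPM in aged and 2152 to 3332 CPM in young mice. Over the 8 genes of the S3 list the median log2 fold change was -1.20, and none was called. The 8 skeletal and cardiac muscle markers summed to 1.87 CPM in aged mouse 1 and to 0.909 to 0.976 CPM in the other aged mice. The young mice gave 0.612 to 1.64 CPM, and none of these genes had enough counts to be tested. Myh1, Myh2 and Myh4 of that list were at 0 in every library. Ren1, from the list of fibroblast and mural cells, was also at 0 throughout, so a 0 was not read as absence.

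**Figure D2:**
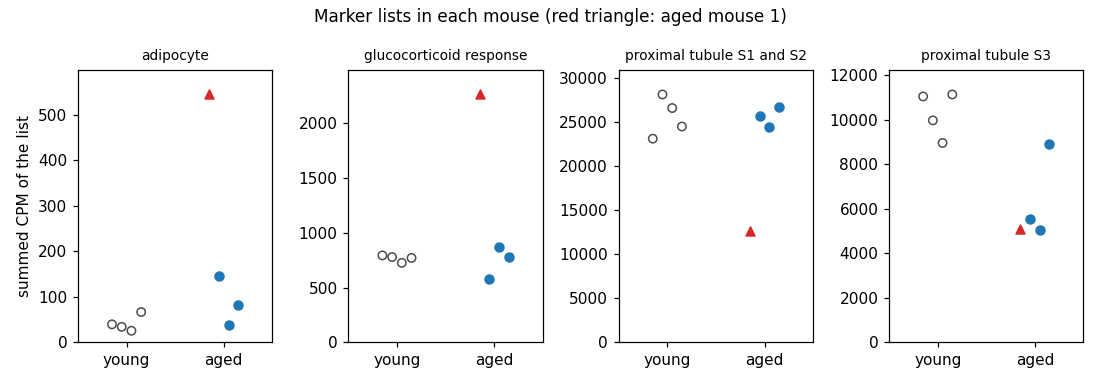
Summed CPM of 4 marker lists in each mouse on linear axes from 0, young as open circles, aged as filled circles and aged mouse 1 as a red triangle. Aged mouse 1 lay above all other mice for adipocyte markers (545 CPM) and glucocorticoid response genes (2264 CPM), and below them for markers of the early proximal tubule (12613 CPM).

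Per transcript length, the members differed widely in level in young cortex. Acadm, the medium-chain acyl-CoA dehydrogenase, was highest at 380 ± 74.6 RPKM (SD, n = 4). Ehhadh, the bifunctional enzyme of peroxisomal oxidation, followed at 315 ± 68.6 RPKM, and Etfb, the beta subunit of the electron transfer flavoprotein, at 287 ± 21.4 RPKM. These neighbours differed by less than the SD of Ehhadh. Hadh, the 3-hydroxyacyl-CoA dehydrogenase, stood at 256 ± 11.2 RPKM, within 1 SD of Ehhadh and more than 1 SD below Etfb. At the other end, Fabp1 was the lowest tested member at 0.764 ± 0.285 RPKM. The levels of Hadhb and Fabp3 could not be placed in this order, since near-identical copies elsewhere in the genome cover 94.2% and 90.5% of their transcript windows and only uniquely placed reads were counted.

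**Figure D3:**
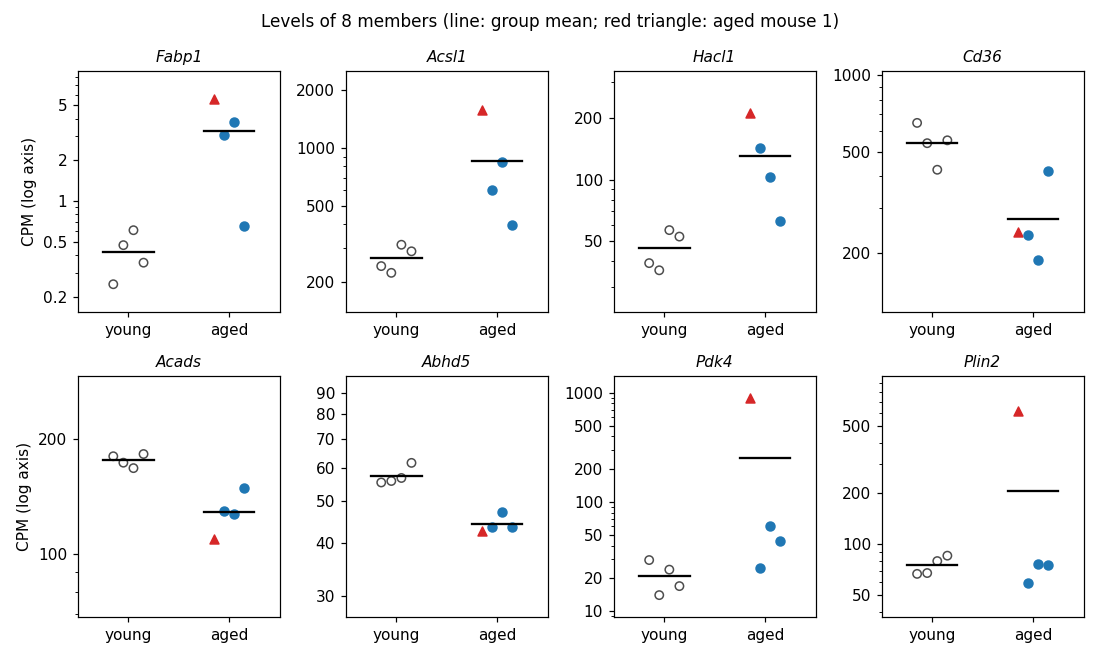
CPM of 8 members in each mouse on log axes, with young mice as open circles, aged mice as filled circles, aged mouse 1 as a red triangle and the group mean as a line. Pdk4 reached 892 CPM in aged mouse 1 against 24.9 to 60.8 CPM in the other aged mice, while Cd36 and Abhd5 were lower in all 4 aged mice than in any young mouse.

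Of the regulators, Ppara, which encodes PPAR-alpha itself, stood at 507, 234, 280.5 and 292 CPM in aged mice 1 to 4 and at 212, 227, 273 and 344 CPM in young mice 1 to 4. Aged mouse 1 was the highest of all, and the other 3 aged mice lay within the young range. The log2 fold change was 0.31 (SE 0.25, adjusted p = 0.443), and 0.03 without aged mouse 1 (adjusted p = 0.936). Ppargc1a, the coactivator PGC-1alpha that drives mitochondrial gene programs, was at 174, 199, 151 and 180 CPM in aged mice and at 151, 162, 143 and 135 CPM in young mice. Aged mouse 3 lay within the young range, the other aged mice lay above it, and aged mouse 1 was not unusual. The log2 fold change was 0.25 (SE 0.10, adjusted p = 0.163) and nearly the same without that mouse, at 0.26.

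The uptake and activation genes differed in direction, with Fabp1 the only call. Cd36, the membrane protein that takes up long-chain fatty acids, was at 242, 237, 188 and 421 CPM in aged mice and at 648, 540.0, 425 and 554 CPM in young mice. Every aged mouse lay below every young mouse, although aged mouse 4 came close to young mouse 3. On the log2 scale aged minus young was -0.99 (SE 0.24), or -0.94 without aged mouse 1, and missed the threshold with adjusted p = 0.0608 and 0.0685. Per length, Cd36 was at 152 ± 25.7 RPKM in young and 76.3 ± 28.7 RPKM in aged cortex (SD, n = 4 each). The gene spans chromosome 5 from 17287508 to 17394777 on the minus strand (mm9).

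Acsl1, which activates long-chain fatty acids to acyl-CoA (chromosome 8, 47556395 to 47621405, plus strand, mm9), was at 1568, 603, 839 and 397 CPM in aged mice. Young mice held 243, 224, 314 and 290 CPM, below all aged mice. The fold was 3.18 (log2 1.67, SE 0.37) with adjusted p = 0.0505, and narrowly missed the threshold. Without aged mouse 1, the highest, the log2 fold change was 1.20 (SE 0.23) and the adjusted p 0.0275. Fabp3, a fatty acid carrier known from heart and muscle, had a log2 fold change of -0.03 (SE 0.18, adjusted p = 0.918). Near-identical copies cover most of its transcript, so this value rests on the uniquely placed reads only.

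Fabp1, the liver-type fatty acid binding protein that carries fatty acids through the cytosol (chromosome 6, 71149821 to 71155017, plus strand, mm9), gave 114, 47, 71 and 12 read pairs in aged mice and 4, 9, 9 and 6 in young mice. Scaled, these were 5.60, 3.06, 3.79 and 0.654 CPM against 0.247, 0.476, 0.612 and 0.354 CPM. The groups did not overlap, but aged mouse 4 lay next to young mouse 3. The gene rose 7.70-fold (log2 2.94, SE 0.61, adjusted p = 0.0429), and by 2.55 on the log2 scale without aged mouse 1 (SE 0.58, adjusted p = 0.0431). Its counts in young mice were under the filter's minimum of 10, so it entered the test through its aged counts, and a gene that enters in this way had to differ. The call therefore rests on few reads, and under the requirement of 10 counts in every library Fabp1 could not be tested.

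Fabp1 is a known target of PPAR-alpha, and its promoter is shown because among the members it alone carried a match to a degenerate PPAR response element. The letters searched were AGGNCA, any base and AGGNCA again, where N is any base, a loose form of the direct repeat of AGGTCA that PPAR-alpha and RXR bind, on both strands of the 300 bases around each RefSeq start (GRCm38.p6, 250 before and 50 after). The 250 bases before the start, at chr6:71199629-71199878 on the plus strand, are given 5′ to 3′ with the match, which reads along the opposite strand and begins at position -67, in capitals.
Fabp1: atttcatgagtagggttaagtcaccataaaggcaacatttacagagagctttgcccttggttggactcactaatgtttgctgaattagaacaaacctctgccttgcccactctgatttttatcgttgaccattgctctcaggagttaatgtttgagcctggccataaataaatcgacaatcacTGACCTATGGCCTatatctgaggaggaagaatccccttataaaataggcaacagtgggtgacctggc
This was 1 of 37 windows (2.70%) of the 35 members with an entry, against 125 of 32851 windows of all genes (0.381%), and 0 of 73 windows of the further pathway genes. The strict form, AGGTCA repeated after any base, was in 0 member windows. A single AGGTCA, which both repeats may contain, was in 8 of 37 member windows (21.6%) and in 16.3% of all windows. A match is a string of letters and not a measured binding site. Cpt1b, Crat, Acaa2, Decr1, Angptl4 and Vnn1 were not searched.

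Among the genes of the carnitine shuttle, which hands acyl groups across the mitochondrial membrane, no member was called. Cpt1a, the enzyme that commits fatty acids to mitochondrial entry, was at 1244, 563, 652 and 805 CPM in aged mice and at 605, 631, 678 and 718 CPM in young mice. Aged mice 1 and 4 stood above the young range, and aged mouse 2 below it. The log2 fold change was 0.31 (SE 0.23, adjusted p = 0.401), and 0.03 without aged mouse 1 (SE 0.13). Over the 4 tested genes of this role the median log2 fold change was 0.10 with all mice and -0.10 without aged mouse 1.

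The mitochondrial acyl-CoA dehydrogenases, which carry out the first oxidation of each round and differ in the chain length they accept, included the fall of the short-chain enzyme. Acads (chromosome 5, 115560308 to 115569355, minus strand, mm9) was at 110, 130, 128 and 149 CPM in aged mice and at 181, 174, 168 and 183 CPM in young mice. The groups were clearly apart, and aged mouse 1 was the lowest. The fold was 1.37 lower in aged mice (log2 -0.45, SE 0.10, adjusted p = 0.0483), and the log2 fold change without aged mouse 1 was -0.38 (SE 0.08, adjusted p = 0.0312). Acadm was at 602, 542, 518 and 640 CPM in aged mice and at 889, 582, 734 and 909 CPM in young mice. Young mouse 2 fell among the aged mice, and the log2 fold change of -0.44 (SE 0.15) had an adjusted p of 0.127. The enzymes for long and very long chains and for branched short chains had log2 fold changes between -0.12 and 0.18, with adjusted p from 0.364 to 0.461.

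None of the genes for hydration, dehydrogenation and thiolysis, the later steps of each round, was called. Acaa2, the mitochondrial thiolase of medium and short chains, was at 365, 255, 313 and 183 CPM in aged mice and at 147, 153, 231 and 168 CPM in young mice. Aged mice 1, 2 and 3 lay above all young mice, and aged mouse 4 lay among them. Its log2 fold change of 0.68 (SE 0.22, adjusted p = 0.109) became 0.52 without aged mouse 1 (adjusted p = 0.149). Hadh stayed between 421 and 459 CPM in aged mice and between 436 and 476 CPM in young mice, with a log2 fold change of -0.07 (SE 0.08, adjusted p = 0.583). The trifunctional protein's subunit genes Hadha and Hadhb had log2 fold changes of 0.29 (adjusted p = 0.39) and 0.28 (adjusted p = 0.252). The value of Hadhb, whose transcript is mostly covered by near-identical copies, rests on its uniquely placed reads only.

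The genes that pass electrons from these dehydrogenases to the respiratory chain were close to level between the groups. Etfb was at 223, 254, 243 and 251 CPM in aged mice and at 233, 235, 262 and 269 CPM in young mice, with a log2 fold change of -0.04 (SE 0.09, adjusted p = 0.797). Etfdh, the oxidoreductase that delivers the electrons to ubiquinone, was at 355 CPM in aged mouse 1 and at 203, 208 and 206 CPM in the other aged mice. Young mice held 212, 204, 198 and 205 CPM, and aged mice 2, 3 and 4 lay within that range. With all mice the log2 fold change was 0.25 (SE 0.18, adjusted p = 0.401), and 0.01 (SE 0.06) without aged mouse 1.

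**Figure D4:**
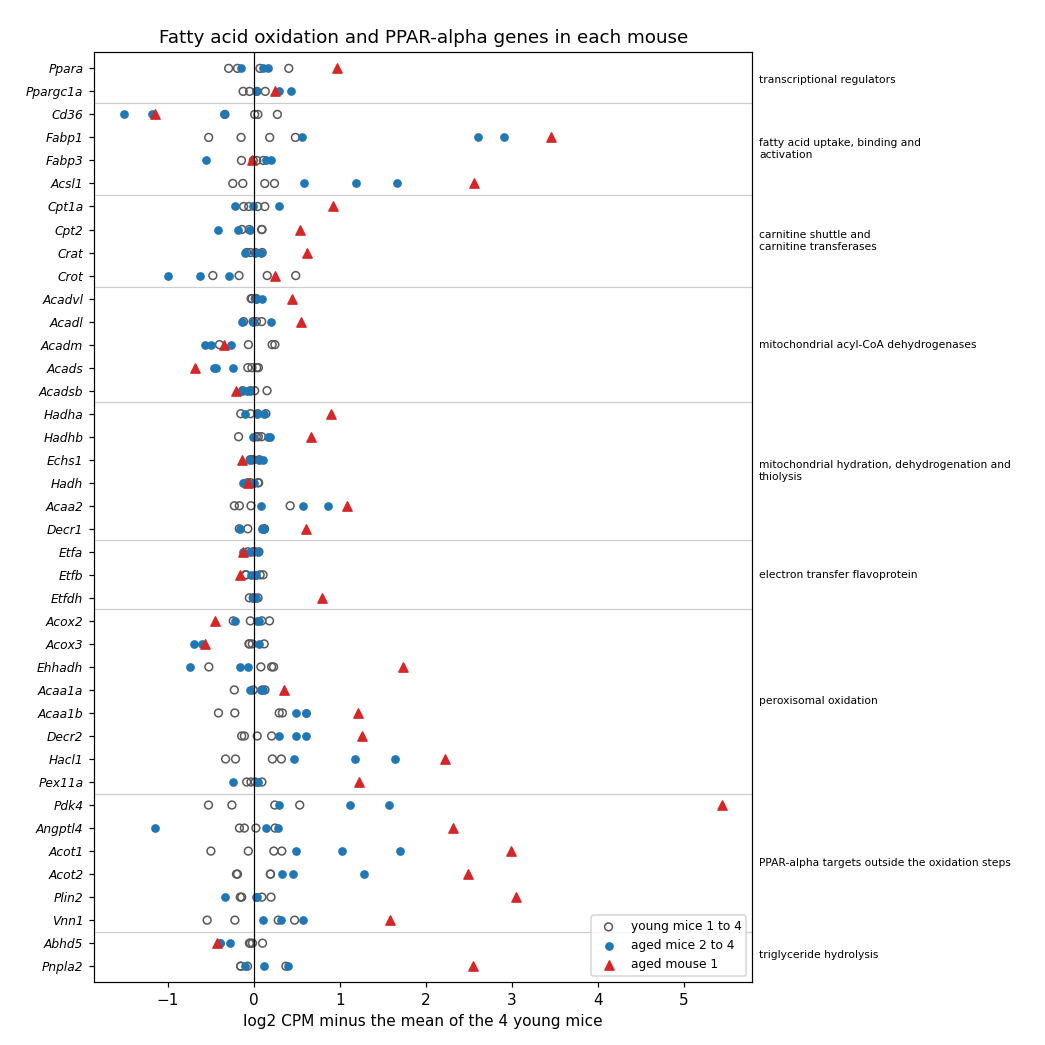
Log2 difference of each tested member from the young mean, 1 point per mouse, with members in order of role. The points of aged mouse 1 lie to the right for most members, with a median of 0.64, and the medians of the other 7 mice lie between -0.13 and 0.10.

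In peroxisomal oxidation the members split. Hacl1, which shortens branched chains by alpha-oxidation (chromosome 14, 32366091 to 32454472, minus strand, mm9), was at 212, 142, 103 and 62.8 CPM in aged mice and at 39.2, 36.2, 56.8 and 52.8 CPM in young mice. All aged mice lay above all young mice, with aged mouse 4 nearest to them. The fold was 2.82 (log2 1.49, SE 0.34, adjusted p = 0.0516), and the log2 fold change without aged mouse 1 was 1.15 (SE 0.26, adjusted p = 0.0423). Ehhadh was at 3105 CPM in aged mouse 1 and at 559, 891 and 833 CPM in the other aged mice, against 1077, 649, 987 and 1094 CPM in young mice. Its direction turned with that mouse, from a log2 fold change of 0.50 (SE 0.49, adjusted p = 0.54) to -0.32 (SE 0.21, adjusted p = 0.371) without it. Decr2, the peroxisomal dienoyl-CoA reductase, was named after its values were seen because it was called without aged mouse 1 and not with all mice. It was at 125, 73.9, 79.6 and 64.3 CPM in aged mice and at 60.5, 53.8, 48.6 and 47.5 CPM in young mice, with adjusted p = 0.0796 in all mice and 0.0428 without aged mouse 1. The 8 tested peroxisomal genes had a median log2 fold change of 0.45, and of 0.00 without aged mouse 1. The reads of Acaa1a and Acaa1b, the peroxisomal thiolases, are uncertain in part, since 14.8% and 15.5% of their transcript windows match each other.

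The PPAR-alpha targets outside the oxidation steps had a wide spread, and their median difference was the largest of the roles with all mice but not without aged mouse 1. Pdk4, the kinase that shuts pyruvate out of the citric acid cycle in fasting (chromosome 6, 5433351 to 5446309, minus strand, mm9), was at 892, 24.9, 60.8 and 44.3 CPM in aged mice and at 29.5, 14.1, 24.1 and 17.0 CPM in young mice. Aged mouse 1 exceeded every other mouse by more than 10-fold, and aged mouse 2 lay within the young range. The log2 fold change was 3.60 (SE 1.13, adjusted p = 0.0998), and 1.04 without aged mouse 1 (SE 0.32, adjusted p = 0.0856). Angptl4, a secreted inhibitor of lipoprotein lipase, was at 298, 26.7, 72.2 and 65.8 CPM in aged mice and at 60.5, 53.0, 55.2 and 70.7 CPM in young mice. Only aged mouse 1 was far above the rest, and aged mouse 2 was the lowest of all. The log2 fold change went from 0.95 (SE 0.61, adjusted p = 0.345) to -0.12 (adjusted p = 0.828) without aged mouse 1.

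Acot1, a cytosolic acyl-CoA thioesterase, was at 306, 78.8, 126 and 54.2 CPM in aged mice and at 45.3, 27.2, 36.9 and 48.3 CPM in young mice. The groups did not overlap, with aged mouse 4 just above young mouse 4. Aged minus young on the log2 scale was 1.84 (SE 0.50, adjusted p = 0.0738), and 1.13 (SE 0.28, adjusted p = 0.0518) without aged mouse 1. Acot1 shares 7.65% of its transcript windows with Acot2, its mitochondrial relative, so a part of their reads could not be placed. Vnn1, a pantetheinase, was at 369 CPM in aged mouse 1 and at 133 to 183 CPM in the other aged mice, against 84.4 to 171 CPM in young mice. The difference on the log2 scale was 0.72 (SE 0.34, adjusted p = 0.226), and 0.29 without aged mouse 1 (adjusted p = 0.45). Over the 6 genes of this role the median log2 fold change was 1.44 with all mice and 0.52 without aged mouse 1, when that of the uptake and activation genes was 0.58.

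Of the genes of triglyceride hydrolysis, the co-activator was called and the lipase was not. Abhd5, also known as CGI-58, which switches on adipose triglyceride lipase (chromosome 9, 122260726 to 122290642, plus strand, mm9), was at 42.7, 43.6, 47.1 and 43.6 CPM in aged mice and at 55.4, 55.8, 56.7 and 61.5 CPM in young mice. The groups were well apart and tight. The fold was 1.30 lower in aged mice (log2 -0.37, SE 0.07, adjusted p = 0.0379), and the value without aged mouse 1 was -0.36 (SE 0.07, adjusted p = 0.029). Pnpla2, the lipase itself, was at 495, 111, 78.7 and 91.4 CPM in aged mice and at 80.0, 75.8, 75.8 and 109 CPM in young mice. Aged mouse 1 was the highest, and the other 3 aged mice lay near or within the young range. Its log2 fold change of 1.19 (SE 0.56, adjusted p = 0.223) became 0.14 (SE 0.16, adjusted p = 0.618) without aged mouse 1.

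The calls on Fabp1, Acads and Abhd5 held without aged mouse 1 and without aged mouse 4, and each was lost when aged mouse 2, aged mouse 3 or any young mouse was left out, with adjusted p up to 0.134, 0.138 and 0.13. Because Fabp1 entered the test through its aged counts, these fits add no support to its call. The number of calls over all genes also fell in those 6 fits, from 411 to between 8 (without young mouse 1) and 150 (without aged mouse 2).

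A list of 71 further genes of fatty acid, ketone body and PPAR-alpha biology held 69 tested genes, of which 3 were called. Over all genes 2.95% were called. The groups did not overlap in 21 of 69, against 18.9% of all genes. Aged mouse 1 was highest in 36 of the 69, against 28.4% of all genes, and lowest in 17, against 29.3%. It exceeded the mean of the other aged mice by more than 1.5-fold in 30 of the 69 and fell below it by as much in 12. The median log2 fold change was 0.12, and -0.03 without aged mouse 1. Cyp4a14, a fatty acid omega-hydroxylase and PPAR-alpha target, was at 4509, 676, 847 and 309 CPM in aged mice and at 73.5, 13.6, 116 and 88.9 CPM in young mice. It rose by 4.44 on the log2 scale (SE 0.97, adjusted p = 0.0483), and by 3.07 without aged mouse 1 (SE 0.61, adjusted p = 0.0308). Nudt19, a peroxisomal hydrolase of CoA, was at 187, 181, 268 and 573 CPM in aged mice and at 1282, 1052, 964 and 1011 CPM in young mice. Its log2 fold change was -1.83 (SE 0.36, adjusted p = 0.039), and all aged mice lay below all young mice. Pdk3, a pyruvate dehydrogenase kinase like Pdk4, also fell, with a log2 fold change of -1.17 (SE 0.25, adjusted p = 0.0472).

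Oxct1, which ketone body use requires, was named after its values were seen. It was at 436, 969, 856 and 1066 CPM in aged mice and at 1630, 1568, 1578 and 1659 CPM in young mice. It lay lower in every aged mouse, with a log2 fold change of -0.95 (adjusted p = 0.0658), and -0.74 (adjusted p = 0.0111) without aged mouse 1. In the fit without that mouse 10 of the 69 tested further genes were called, against 5.83% of all genes. Of these, 5 were higher in aged mice (2.65% of all genes) and 5 lower, Oxct1 among them (3.18% of all genes).

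**Figure D5:**
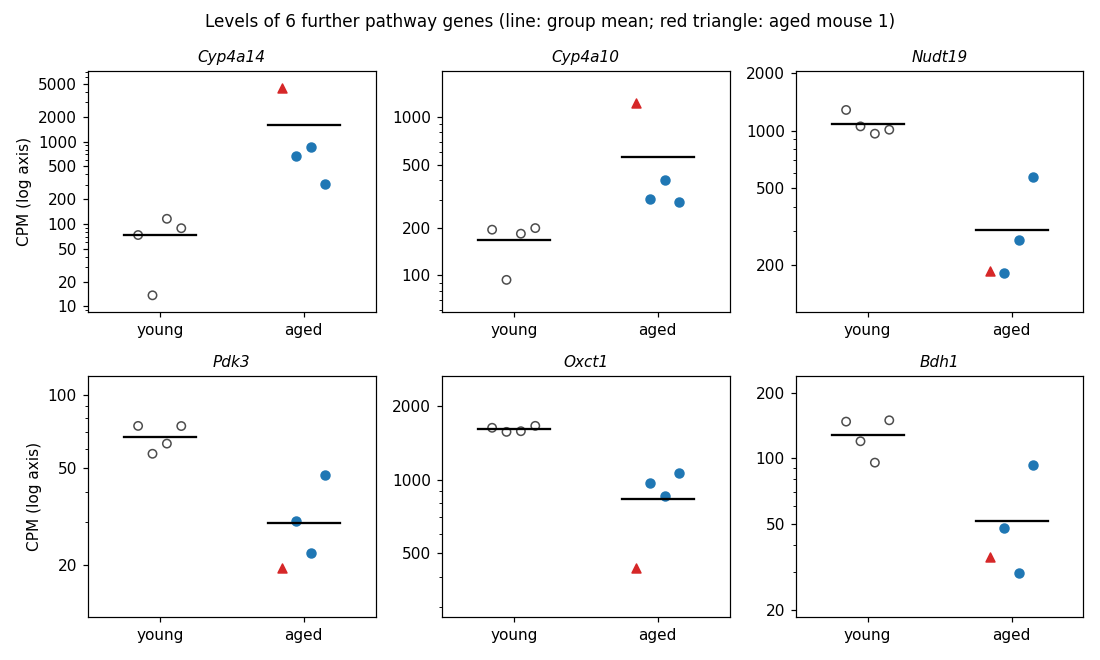
CPM of 6 further pathway genes in each mouse on log axes, young as open circles, aged as filled circles, aged mouse 1 as a red triangle and the group mean as a line. Cyp4a14 and Cyp4a10 were higher in all 4 aged mice than in any young mouse, and Nudt19, Pdk3, Oxct1 and Bdh1 were lower.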

How the data were processed

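Kidney cortex RNA of 8 mice was depleted of ribosomal RNA and made into stranded libraries. The authors aligned reads to mm9 with TopHat2 and counted them per RefSeq gene with HTSeq-count in reverse-strand mode, and the deposited values are unnormalized counts (1 library per mouse). A joint table with the same values was not used. CASAVA 1.8.2 and SAMtools are named in the submitters' processing notes, and other versions are not given in the sources used here. Pairs without a gene (20.0 to 29.9% of the total), not uniquely aligned (34.3 to 39.1%) or ambiguous (at most 0.346%) are not genes and stayed out of library sizes and tests.

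From these counts, edgeR 4.0.16 (R 4.3.3) fitted all 8 libraries with TMM scaling, a minimum count of 10 (filterByExpr), age group as the only term and the quasi-likelihood test, two-sided, with Benjamini-Hochberg adjustment over 13944 genes. The standard errors given were worked back from this test, as the absolute log2 fold change divided by the square root of its F statistic. Alternatives were DESeq2 1.42.0, limma-voom 3.58.1 with quality weights, other scalings and filters, a replicate block and leaving out each mouse. RPKM used the longest coding transcript of GENCODE vM1. Near-identical copies are stretches of 100 bases or more at 98% identity found with BLAST 2.17.0. The code was tested on simulated data with known changes. Their spread was taken from the young mice, so no simulated mouse stood apart as aged mouse 1 did. Labels give the age group, the age and a tissue number, and the paper gives 4 mice in each group, so p-values measure the spread between these libraries. The paper's methods state a different mean age for the aged mice than the labels do.

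Genes named are those called, the smallest p and highest RPKM of each role, the 5 largest fold changes and Ppara, Ppargc1a, Cpt1a, Pdk4 and Angptl4. The members and lists were chosen with earlier results of these data known. Some genes of the further list are not reported here by name.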

Additional observations from a re-analysis of the deposited data

Results flagged for a closer look

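Within groups of 4 mice, a mouse was singled out where its gap to the nearest other mouse, divided by the group's range, passed Dixon's 95% critical value. This was applied to 86 groups of values and gave 5 cases, where 4.3 are given by chance at that level. The highest mouse was aged mouse 1 in 4 of them, with a ratio of 0.853 for Acadvl, 0.958 for Etfdh, 0.845 for Acaa1b and 0.891 for Plin2. In the other case young mouse 4 was the highest for Pnpla2, with a ratio of 0.85. Acadvl is the very long-chain acyl-CoA dehydrogenase and Plin2 a lipid droplet coat protein, and both are named here for this measure only. Causes were not tested.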

How the results depend on the processing

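With all 8 mice, 1 member was called higher and 2 lower. The number called higher was 3 with upper-quartile scaling and with library size alone, 8 with DESeq2, 4 with limma-voom, and 0 when 10 counts were required in every library or with a replicate block, and leaving out each mouse gave 0 to 7 (7 without aged mouse 4, 4 without aged mouse 1). The number called lower was 1 with upper-quartile scaling, with no filter and with 10 counts in every library, 4 with DESeq2 and 0 with the replicate block, and leaving out each mouse gave 0 to 4. The median log2 fold change over the members, 0.25, ranged from 0.0189 without aged mouse 1 to 0.31 when each mouse was left out, and from 0.06 to 0.36 in the other settings. Of the further pathway genes, 3 were called, against 5 with library size alone, 15 with DESeq2, 11 with limma-voom and 1 with the replicate block, and 0 to 17 when each mouse was left out. The highest of these counts, with 7 members higher, 4 lower and 17 further genes, all came without aged mouse 4. The share of all genes called in that fit is not given here, so its counts are not read as particular to these genes. Over all genes 411 were called, against 1685 with DESeq2, 898 with limma-voom, 776 with library size alone (where the median of all genes shifted to 0.14) and 132 with the block. Single members gained a call in 29 and lost one in 25 combinations of gene and setting. The sign turned in 27 more, each without a call. With upper-quartile scaling the log2 fold changes became 0.0067 (Fabp3), 0.037 (Echs1) and 0.00028 (Etfb), and with library size alone 0.083 (Fabp3), 0.11 (Echs1), 0.036 (Hadh), 0.049 (Etfa) and 0.07 (Etfb). With limma-voom they became -0.18 (Cpt2), 0.031 (Echs1), -0.23 (Ehhadh) and -0.061 (Angptl4). Echs1 stood at 0.0037 with 10 counts in every library, and Cpt2 at -0.026 with the replicate block. Leaving out each mouse gave lowest and highest values of -0.21 and 0.14 (Cpt2), -0.00018 and 0.26 (Crat), -0.040 and 0.041 (Echs1), -0.32 and 0.76 (Ehhadh), -0.043 and 0.55 (Pex11a), -0.12 and 1.28 (Angptl4), -0.088 and 1.78 (Plin2) and -0.12 and 0.11 (Fabp3), with the lowest of Cpt2, Crat, Ehhadh, Pex11a, Angptl4 and Plin2 without aged mouse 1. The deviations of same-numbered aged and young mice from their group means had correlations over genes of 0.21, 0.04, 0.20 and -0.03, not all above 0.1, so the numbers were not taken to pair the mice. As a hint from the data the other way, 3 of 4 aged mice correlated best with their own number. Fabp1 was past the threshold in 8 of 15 settings, Acads in 6 of 16 and Abhd5 in 8 of 16. Depth limits Fabp1 and Cpt1b, whose counts were low, and 4 mice a group limit the other genes. The causes of these shifts were not tested.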
